A study of Mus musculus with 2 samples.

Results

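The family described here is the mouse receptors for the Fc part of immunoglobulin G (IgG) and the 2 genes that work with them: Fcgr1, Fcgr3 and Fcgr4, which encode activating receptors, Fcgr2b, which encodes the inhibitory receptor, Fcer1g, which encodes the signaling chain that the activating receptors share, and Fcgrt, which encodes the heavy chain of the neonatal Fc receptor. These 6 genes were chosen by name out of 32285 features, and their transcripts were counted as unique molecular identifiers (UMIs, 1 per captured transcript) in macrophage subsets, monocytes, neutrophils, B cells, natural killer cells and sinusoidal endothelial cells. All 6 were detected in both libraries. The data are 10x Genomics 3′ single-cell RNA libraries of liver tumors, 1 per group. The hKO library came from C57BL/6J mice whose hepatocytes lack the fatty acid binding protein gene Fabp5 through a tamoxifen-inducible Cre under the albumin promoter (Alb-CRE-ER), and the WT library from their wild-type littermates (the labels do not say whether these carried Cre). Both groups were given 5 doses of tamoxifen (100 mg/kg, 1 dose every 3 days after a 16 h fast) at 6 to 8 weeks of age, and 2 weeks after the last dose they began 15 months on CD-HFD, commonly a choline-deficient high-fat diet. Each library pooled 2 to 3 hepatocellular carcinomas without a cell sort, so values of single mice or tumors cannot be told apart. With 1 library per group there is no replicate and no test, and every interval given below is a 95% interval that covers counting error only.

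Fc gamma receptors let phagocytes and other leukocytes bind IgG on opsonized particles and immune complexes. The activating receptors signal through the tyrosine motif of the FcRγ chain, the product of Fcer1g, which also carries them to the surface, and the kinases Lyn and Syk act next to them. FcγRIIB carries an inhibitory tyrosine motif that recruits the phosphatase SHIP1, the product of Inpp5d. In the liver, FcγRIIB on sinusoidal endothelium is known for clearing small immune complexes from blood, Kupffer cells are the resident phagocytes, and the neonatal Fc receptor, which pairs with β2-microglobulin, returns IgG and albumin to the circulation.

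The hKO library held 18657 barcodes and 68010317 UMIs, and the WT library 14289 barcodes and 58772330 UMIs. In hKO 36.8% of barcodes were over the limit of 25% mitochondrial UMIs, against 18.5% in WT. After filters and doublet removal 10402 hKO cells (median 3642.5 UMIs) and 9459 WT cells (median 3822 UMIs) were kept, 19861 in all, and the libraries shared 29 of these cell barcodes. Cells were clustered without the 6 genes and without any other Fc receptor gene, and 25 of 29 clusters were named from fixed markers, with "-like" added because markers alone gave the name. Fabp5, the targeted gene, had 13.8 CPM (UMIs per 1000000 UMIs of the class; 51 UMIs) in hKO and 100.5 CPM (79 UMIs) in WT hepatocyte-like cells, with a log2 ratio of hKO over WT of -2.87 (-3.40 to -2.34). The hepatocyte-like cells came from different clusters in the libraries (10 and 22 in hKO, 21 in WT). Over all kept cells Fabp5 had 15.7 CPM in both libraries, and in macrophage-like cells it had 31.7 CPM in hKO and 27.5 CPM in WT.

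Fcgr2b, Fcgr4 and Fcgr3 lie next to each other on mouse chromosome 1, Fcer1g lies farther along the same chromosome beside Apoa2, Fcgr1 is on chromosome 3 and Fcgrt on chromosome 7. Fcgr4 is transcribed from the plus strand and the others from the minus strand. The 250 bases upstream of the start of each gene (RefSeq, build GRCm38.p6) are shown for the activating receptors and the inhibitory receptor, because the activating receptors were highest in macrophages, monocytes and neutrophils while Fcgr2b was highest in sinusoidal endothelium. Capitals mark 2 motifs searched on both strands. The first is GAGGAAG, a form of the box bound by the myeloid factor PU.1, which reads CTTCCTC on the opposite strand. The other is GAAA repeated after 2 free bases, the form of site that interferon regulatory factors bind.
Fcgr1: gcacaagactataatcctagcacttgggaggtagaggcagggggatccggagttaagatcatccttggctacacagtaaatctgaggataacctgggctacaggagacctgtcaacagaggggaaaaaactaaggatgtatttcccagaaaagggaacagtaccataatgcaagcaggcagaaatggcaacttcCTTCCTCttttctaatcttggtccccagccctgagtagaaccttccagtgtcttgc
Fcgr3: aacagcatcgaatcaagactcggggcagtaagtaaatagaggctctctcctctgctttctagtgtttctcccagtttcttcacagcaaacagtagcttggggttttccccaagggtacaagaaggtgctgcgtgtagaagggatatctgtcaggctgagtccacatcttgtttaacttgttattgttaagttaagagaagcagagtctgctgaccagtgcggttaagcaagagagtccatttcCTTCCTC
Fcgr4: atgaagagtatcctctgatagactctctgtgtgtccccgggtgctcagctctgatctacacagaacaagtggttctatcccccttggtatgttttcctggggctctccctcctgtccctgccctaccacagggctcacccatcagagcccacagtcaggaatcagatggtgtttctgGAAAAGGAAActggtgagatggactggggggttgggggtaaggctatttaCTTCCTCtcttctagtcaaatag
Fcgr2b: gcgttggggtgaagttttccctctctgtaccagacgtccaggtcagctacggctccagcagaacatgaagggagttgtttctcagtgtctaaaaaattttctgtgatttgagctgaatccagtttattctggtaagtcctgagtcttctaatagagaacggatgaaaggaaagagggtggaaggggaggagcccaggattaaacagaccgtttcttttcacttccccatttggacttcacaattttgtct
These stretches are chr3:96293970-96294219 (minus strand) for Fcgr1, chr1:171059404-171059653 (minus strand) for Fcgr3, chr1:171018676-171018925 (plus strand) for Fcgr4 and chr1:170976072-170976321 (minus strand) for Fcgr2b. The PU.1 box stood in all 3 activating receptor genes, beginning at base -56 of Fcgr1, -7 of Fcgr3 and -23 of Fcgr4, counted back from the start site, and it stood in 10.4% of 27025 promoter windows of the same length. The interferon regulatory factor pair stood at base -73 of Fcgr4 (3.04% of windows). Neither motif was found in these windows of Fcgr2b, Fcer1g or Fcgrt. A match is a description of letters and was not tested as a binding site.

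Each gene had its own distribution over the 16 classes that held at least 50 cells in both libraries and share no cell, as the plot of levels by class shows. Fcgr1, the high-affinity receptor, was highest in macrophages, with 174 CPM (145 to 206) in hKO and 229 CPM (214 to 244) in WT Kupffer-like cells, and 153 CPM (143 to 164) in hKO and 235 CPM (219 to 252) in WT other macrophage-like cells. These 2 macrophage subsets overlapped in both libraries, and classical monocyte-like cells followed with 116 CPM in hKO and 163 CPM in WT. Fcgr2b was highest in sinusoidal endothelial-like cells, at 736 CPM (698 to 776) in hKO and 1002 CPM (980 to 1024) in WT, and classical monocyte-like cells and other macrophage-like cells came next with 182 to 225 CPM. Fcgr3, a low-affinity activating receptor, stood between 196 and 391 CPM in both macrophage subsets, in neutrophil-like and in classical monocyte-like cells, in both libraries. Fcgr4, which in mice is carried by macrophages, neutrophils and patrolling monocytes, was led by other macrophage-like cells in hKO (435 CPM, 417 to 452), and by nonclassical monocyte-like cells in WT (483 CPM, 412 to 564). Fcer1g exceeded 1000 CPM in every macrophage, monocyte, neutrophil and type 2 conventional dendritic class of both libraries and was highest in nonclassical monocyte-like cells, with 2588 CPM in hKO and 2584 CPM in WT, though in hKO their interval overlapped that of other macrophage-like cells (2566 CPM). Fcgrt was highest in sinusoidal endothelial-like cells (250 CPM in hKO and 295 CPM in WT), with Kupffer-like cells second (148 CPM in hKO and 192 CPM in WT), though in hKO their interval overlapped that of other macrophage-like cells. A 3′ library captures each transcript at its end, so levels were not divided by gene length, and capture may still differ between genes.

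**Figure D1:**
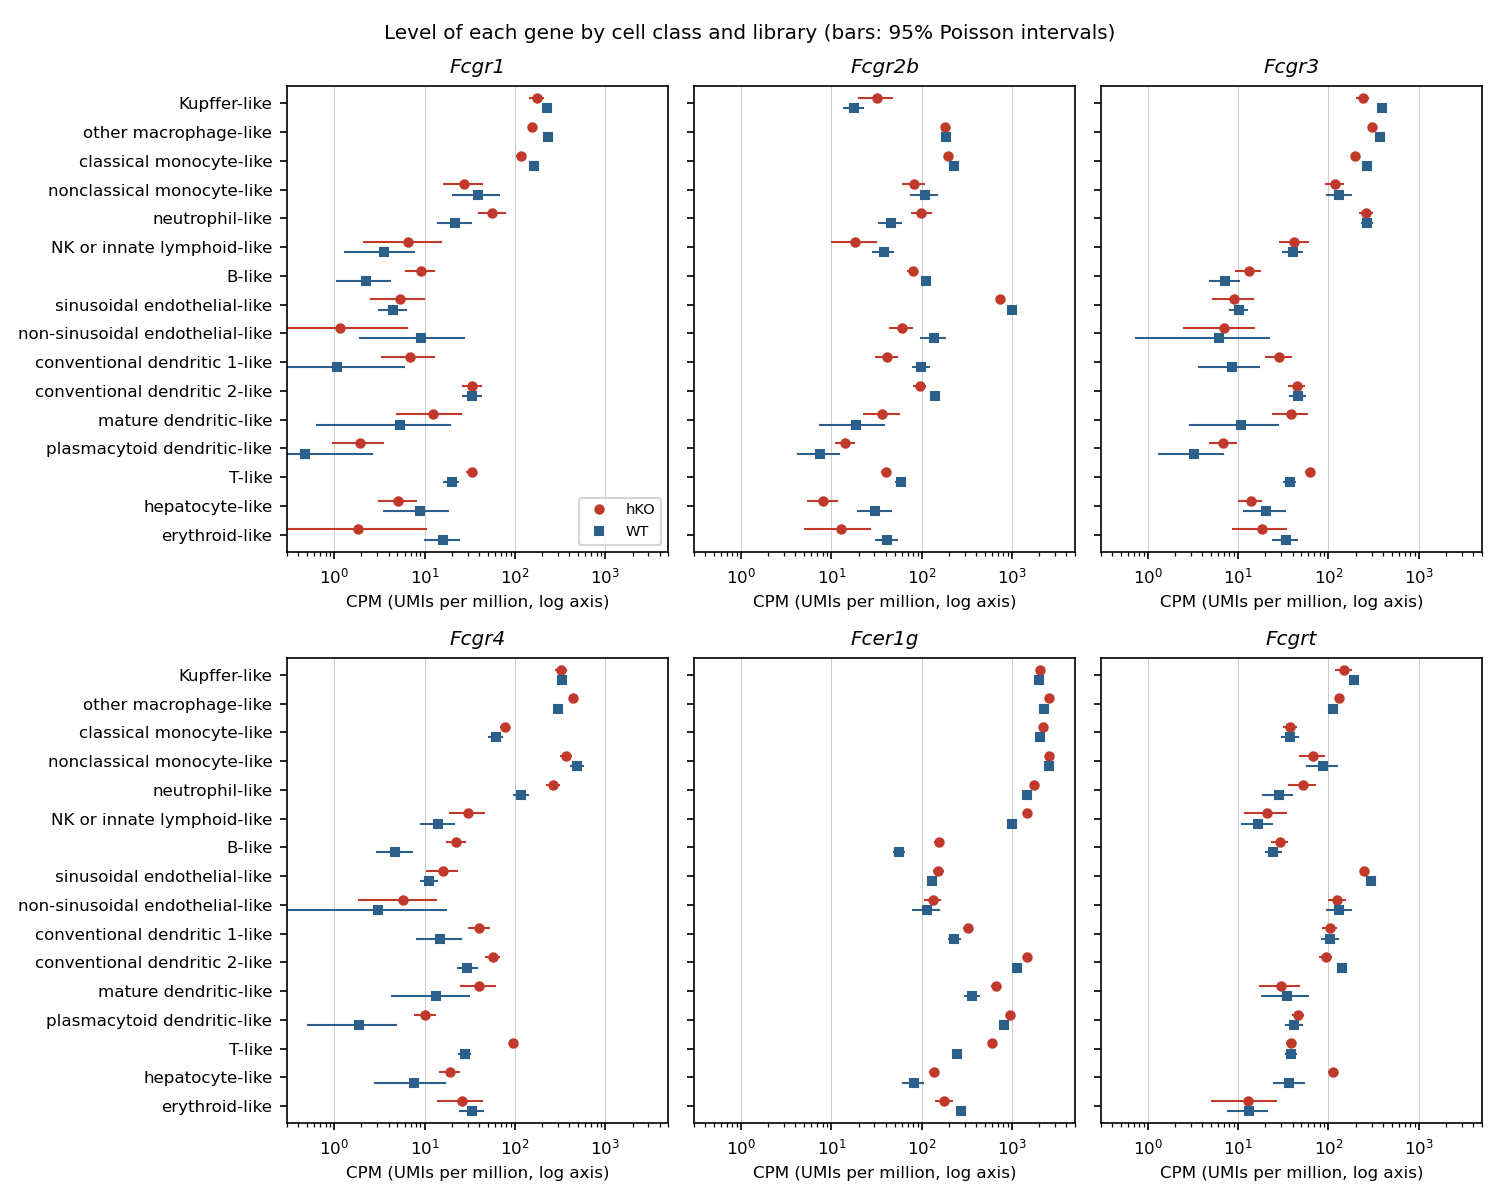
Level of each gene in CPM (log axis) in 16 cell classes, with hKO as circles and WT as squares and bars as exact Poisson 95% intervals. Fcgr2b peaks in sinusoidal endothelial-like cells (736 CPM in hKO and 1002 CPM in WT), while the activating receptors peak in macrophage or nonclassical monocyte classes.

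T-like cells, which are expected to lack these receptors, served to gauge free RNA and attached fragments. In them Fcgr4 had 95.1 CPM in hKO and 27.7 CPM in WT, Fcgr3 62.0 CPM in hKO and 37.1 CPM in WT, Fcgr1 33.0 CPM in hKO and 19.9 CPM in WT, and Fcgr2b 40.4 CPM in hKO and 58.2 CPM in WT. For Fcer1g, which natural killer and some T cells use, B-like cells were taken instead, with 154 CPM in hKO and 55.8 CPM in WT. Among T-like cells without a C1q UMI, Fcgr2b had 16.2 CPM (39 UMIs) in hKO and 49.2 CPM (146 UMIs) in WT, a log2 ratio of -1.60 (-2.15 to -1.08), while Fcgr4 had 10.4 CPM in hKO and 3.03 CPM in WT. Most of the WT Fcgr2b level thus remained without cells that held C1q. C1q is a macrophage transcript, while Fcgr2b was highest in sinusoidal endothelial-like cells. The subset therefore cannot tell whether T-like cells gauge Fcgr2b as well as Fcgr4, and the source of the remaining Fcgr2b was not tested. The background was higher in hKO for Fcgr1, Fcgr3, Fcgr4 and Fcer1g and lower for Fcgr2b, and levels near it in other classes are given without a reading of expression.

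Macrophage-like cells carried every receptor of the family. There were 1779 such cells in hKO (median 2311 UMIs) and 1739 in WT (median 2568 UMIs). Fcgr2b and Fcgr4 were higher in hKO and Fcgr1 and Fcgr3 lower, all by less than a doubling. None of the 6 genes was past the fold used here (50 CPM or more in either library, a log2 ratio at or beyond 1 in either direction, and an interval that leaves out 0), against 5.18% of the 3667 genes at that level in macrophage-like cells. All 6 intervals excluded 0, but so did those of many genes, with 26.7% of the 3667 above 0 and 37.3% below.

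Fcgr1 had 991 UMIs (155 CPM, 146 to 165) in hKO and 1678 UMIs (232 CPM, 221 to 243) in WT macrophage-like cells, a log2 ratio of -0.58 (-0.69 to -0.46). The share of macrophage-like cells with an Fcgr1 UMI was 32.7% in hKO and 41.2% in WT, against 10.4% in hKO and 4.94% in WT T-like cells, whose median depth was 3774 UMIs in hKO and 3743.5 UMIs in WT. Thinned to 1000 UMIs per cell, which kept 1329 hKO and 1285 WT macrophage-like cells and left out 450 hKO and 454 WT cells, the shares were 13.8% in hKO and 18.7% in WT. Fcgr1 was therefore lower in hKO by level and by share of cells, before and after thinning.

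Fcgr3 had 1897 UMIs (297 CPM, 284 to 311) in hKO and 2781 UMIs (384 CPM, 370 to 398) in WT macrophage-like cells, a log2 ratio of -0.37 (-0.45 to -0.28). Fcgr4 went the other way, with 2685 UMIs (421 CPM, 405 to 437) in hKO and 2310 UMIs (319 CPM, 306 to 332) in WT, a log2 ratio of 0.40 (0.32 to 0.48). Thinned shares of cells with a UMI were 23.3% in hKO and 27.2% in WT for Fcgr3, and 33.0% in hKO and 24.7% in WT for Fcgr4. In T-like cells the thinned shares were 5.19% in hKO and 3.00% in WT for Fcgr3, and 6.92% in hKO and 1.47% in WT for Fcgr4. The Fcgr4 ratio fell to 0.16 when the T-like level was subtracted from each library, and it was -0.03 without the macrophage subclusters led by genes of another class, a setting that left 99 hKO and 1401 WT cells.

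Fcgr2b had 1048 UMIs (164 CPM, 155 to 175) in hKO and 668 UMIs (92.2 CPM, 85.3 to 99.5) in WT macrophage-like cells, a log2 ratio of 0.83 (0.69 to 0.98), the largest of the 6 in size. Fcer1g had 2501 CPM (2463 to 2540) in hKO and 2110 CPM (2077 to 2144) in WT, a log2 ratio of 0.25 (0.21 to 0.28), which was -0.17 without those subclusters. Fcgrt had 133 CPM (124 to 142) in hKO and 156 CPM (147 to 165) in WT, a log2 ratio of -0.23 (-0.36 to -0.10), but other macrophage-like cells had 131 CPM in hKO and 112 CPM in WT, a log2 ratio of 0.22 (0.04 to 0.40) that was -0.29 under a mitochondrial limit of 10%, -0.05 with doublets kept and -0.03 under the stricter minimums of 500 genes and 1000 UMIs per cell.

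The mix of macrophage subsets differed between the libraries. Kupffer-like cells, the 2 clusters that carry Clec4f, Vsig4 and Cd5l, made up 168 of 1779 macrophage-like cells in hKO (9.44%) and 1177 of 1739 in WT (67.7%). Fcgr2b was low in Kupffer-like cells, with 31.8 CPM (24 UMIs) in hKO and 17.7 CPM (71 UMIs) in WT, below the T-like level of each library. In other macrophage-like cells it had 182 CPM (171 to 194) in hKO and 184 CPM (170 to 199) in WT, a log2 ratio of -0.01 (-0.16 to 0.13). With both subsets given equal weight, a calculation chosen after the data were seen, the macrophage Fcgr2b level was 107 CPM in hKO and 101 CPM in WT, a log2 ratio of 0.08. In cluster 16 alone, a Kupffer-like cluster, the log2 ratio was 1.12 (0.23 to 1.95), from 18 UMIs in hKO and 40 UMIs in WT. Gates on single marker genes, described below, gave Fcgr2b ratios with intervals above 0 in all 3 groups of cells. These gates did not hold the subset mix fixed. The part of the subset mix in the macrophage-wide difference was not tested.

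The lower Fcgr1 and Fcgr3 of hKO held within both subsets. Fcgr1 had a log2 ratio of -0.40 (-0.67 to -0.13) in Kupffer-like cells and -0.62 (-0.76 to -0.48) in other macrophage-like cells. Fcgr3 had 239 CPM in hKO and 391 CPM in WT Kupffer-like cells, a log2 ratio of -0.71 (-0.94 to -0.49), and 305 CPM in hKO and 375 CPM in WT other macrophage-like cells, a log2 ratio of -0.30 (-0.40 to -0.19). The thinned share of other macrophage-like cells with an Fcgr3 UMI was 23.8% in both libraries, so this lower level was not seen in the share of cells. No member was past the fold in the clusters of Kupffer-like cells (3.65% of genes were) or in other macrophage-like cells (4.56% of genes were).

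The higher Fcgr4 of hKO was seen in other macrophage-like cells, with 435 CPM in hKO and 301 CPM in WT, a log2 ratio of 0.53 (0.42 to 0.64). Kupffer-like cells had 321 CPM in hKO and 334 CPM in WT, a log2 ratio of -0.06 (-0.26 to 0.14). Whether the 2 subsets differ was not tested. Cluster 3, the other macrophage-like cluster with many cells of both libraries (814 in hKO and 525 in WT), gave 434 CPM in hKO and 301 CPM in WT, a log2 ratio of 0.53. The remaining other macrophage-like cells were cluster 9, with 797 hKO and 37 WT cells and a median of 981.5 UMIs. Fcgr4 is among the 10 genes that lead cluster 9. A cluster mostly of 1 library may be that library and not a cell type. Subclusters of all macrophage-like cells also held the libraries unevenly. One of 747 hKO and 12 WT cells raised 8 of 8 hepatocyte markers. Another had 668 hKO and 16 WT cells, while one led by Gpnmb was mostly WT. Whether cluster 3 held the same kinds of cells in both libraries was not tested. Hepatocyte markers summed to 4522 CPM in hKO and 1459 CPM in WT in other macrophage-like cells. In Kupffer-like cells they summed to 2832 CPM in hKO and 1921 CPM in WT. The part of these markers in the Fcgr4 values was not tested. A subcluster of macrophages led by monocyte genes, with 186 hKO and 184 WT cells, had 332 CPM of Fcgr4 in hKO and 363 CPM in WT, a log2 ratio of -0.13 (-0.32 to 0.06), while its ratio was -0.68 (-0.95 to -0.42) for Fcgr1 and -0.60 (-0.80 to -0.40) for Fcgr3.

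Gates on single marker genes, chosen in part after the data were seen, gave a second view of the subsets. Macrophage-like cells with a UMI of Clec4f, the Kupffer cell lectin (129 in hKO and 560 in WT), had log2 ratios of -0.58 for Fcgr1, -0.58 for Fcgr3 and -0.11 for Fcgr4. Those with a UMI of Trem2 or Gpnmb, markers of lipid-associated macrophages, and none of Clec4f (481 in hKO and 463 in WT), had -0.66 for Fcgr1, -0.40 for Fcgr3 and 0.56 for Fcgr4. Those with none of these UMIs (1169 in hKO and 716 in WT) had -0.41 for Fcgr1, -0.28 for Fcgr3 and 0.29 for Fcgr4. Fcgr1 and Fcgr3 were lower in hKO in all 3 gates. Fcgr2b was higher in hKO in all 3 gates, but the gates did not hold the mix of Kupffer-like and other macrophage-like cells fixed. WT had 1177 Kupffer-like cells and 560 cells under the Clec4f gate, so many WT Kupffer-like cells fell under the other gates. The hKO library had 168 Kupffer-like cells in all. The part of this in the Fcgr2b ratios was not tested. Under the Clec4f gate Fcgr2b had 66.6 CPM (48 UMIs) in hKO and 17.8 CPM (45 UMIs) in WT, a log2 ratio of 1.90 (1.28 to 2.52). T-like cells had 40.4 CPM in hKO and 58.2 CPM in WT. The Kupffer-like clusters held 24 Fcgr2b UMIs in 168 hKO cells, so some of the 48 UMIs came from gated cells outside those clusters. Under the Trem2 or Gpnmb gate Fcgr2b had 182 CPM in hKO and 148 CPM in WT, a log2 ratio of 0.30 (0.10 to 0.50). In the rest it had 172 CPM in hKO and 112 CPM in WT, a log2 ratio of 0.62 (0.40 to 0.85).

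**Figure D2:**
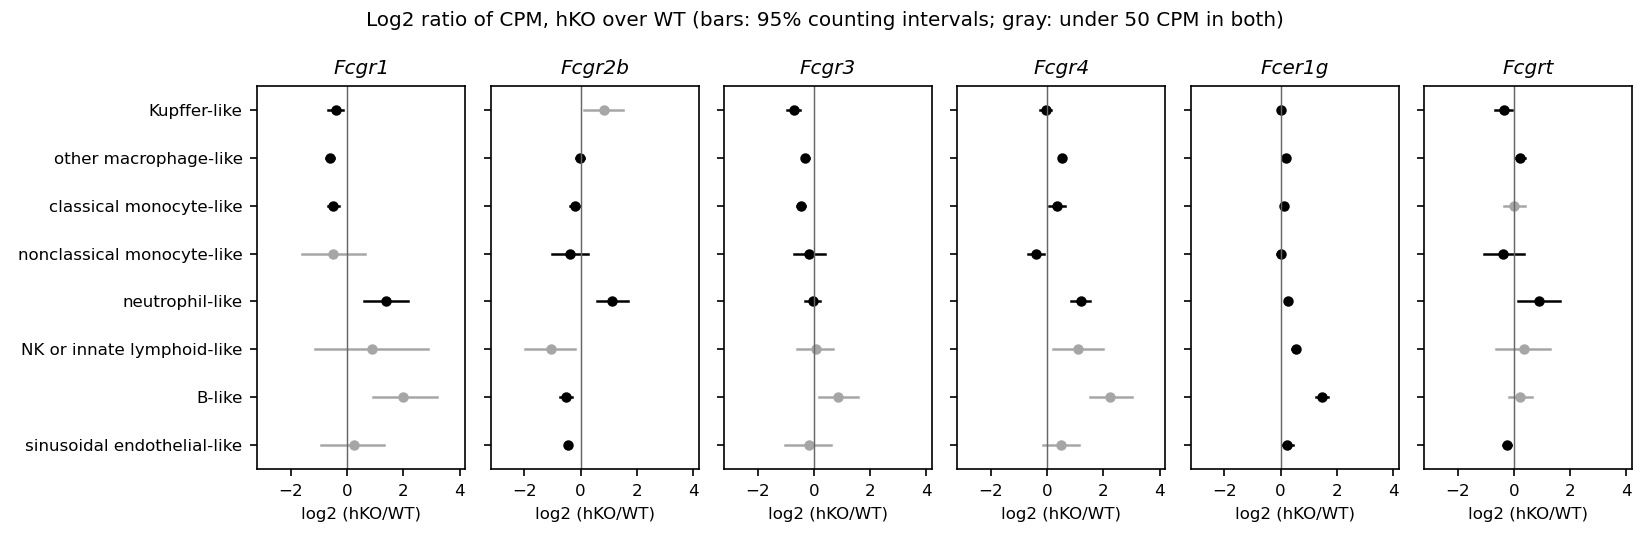
Log2 ratio of hKO over WT for each of the 6 genes in macrophage, monocyte, neutrophil, natural killer, B and sinusoidal endothelial classes, with exact 95% intervals (counting error only), a line at 0 for equal levels and gray points where both libraries were under 50 CPM. Fcgr1 and Fcgr3 lie below 0 in both macrophage subsets and in classical monocyte-like cells, while Fcgr4 lies above 0 in other macrophage-like and neutrophil-like cells.

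In classical monocyte-like cells as a class, the Ly6c2 and Ccr2 monocytes that enter tissue from blood, Fcgr1 and Fcgr3 were again lower in hKO. There were 935 such cells in hKO and 485 in WT. Fcgr1 had 549 UMIs (116 CPM, 107 to 126) in hKO and 422 UMIs (163 CPM, 148 to 179) in WT, a log2 ratio of -0.49 (-0.67 to -0.30). Fcgr3 had 928 UMIs (196 CPM, 184 to 209) in hKO and 701 UMIs (270 CPM, 251 to 291) in WT, a log2 ratio of -0.46 (-0.61 to -0.32). Fcgr2b had 195 CPM in hKO and 225 CPM in WT, a log2 ratio of -0.21 (-0.36 to -0.05), and no member was past the fold, against 4.51% of genes. Fcgr4 had 77.8 CPM in hKO and 60.9 CPM in WT, a log2 ratio of 0.35 (0.08 to 0.63), but this hKO level was below that of hKO T-like cells. Among classical monocyte-like cells without a UMI of C1qa, C1qb or C1qc, complement genes of macrophages, Fcgr4 had 45.5 CPM in hKO and 52.2 CPM in WT, while Fcgr1 kept a log2 ratio of -0.43 (-0.70 to -0.17) and Fcgr3 of -0.52 (-0.73 to -0.32). The monocyte subclusters held the libraries unevenly, one of them, led by hemoglobin genes, having 8 hKO and 218 WT cells. In the 2 subclusters of classical monocyte-like cells with at least 50 cells in both libraries, the log2 ratio of Fcgr1 was -0.06 (-0.47 to 0.37; 379 hKO and 115 WT cells) and -0.09 (-0.53 to 0.36; 184 hKO and 113 WT cells), against -0.49 over the whole class. The same subclusters had -0.40 (-0.71 to -0.09) and -0.14 (-0.46 to 0.18) for Fcgr3. The lower Fcgr1 of the class was thus not seen within its shared subclusters beyond counting error. A small monocyte subcluster led by interferon-response genes, singled out after its values were seen, with 43 hKO and 12 WT cells, held 432 CPM (345 to 534) of Fcgr1 in hKO and 1048 CPM (810 to 1333) in WT, above every class in its own library.

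Nonclassical monocyte-like cells, the patrolling monocytes, had Fcgr4 as their main activating receptor. In 189 hKO and 97 WT cells Fcgr4 had 253 UMIs (366 CPM, 323 to 414) in hKO and 162 UMIs (483 CPM, 412 to 564) in WT, a log2 ratio of -0.40 (-0.69 to -0.11). This is the opposite direction to other macrophage-like cells, and the difference between the 2 classes was not tested. In cells without a C1q UMI the Fcgr4 levels were 360 CPM in hKO and 483 CPM in WT. Intervals of the other 5 genes included 0, with 117 CPM in hKO and 131 CPM in WT for Fcgr3 and 82.5 CPM in hKO and 107 CPM in WT for Fcgr2b, and no member was past the fold (8.99% of genes were).

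Neutrophil-like cells (262 in hKO and 498 in WT) were the class with the most members past the fold. Fcgr1, Fcgr2b and Fcgr4 were higher in hKO past it, against 11.3% of the 3108 genes tested, the third highest share upward of the classes compared after hepatocyte-like and erythroid-like cells. Fcgr4 had 183 UMIs (263 CPM, 227 to 304) in hKO and 128 UMIs (116 CPM, 96.7 to 138) in WT, a log2 ratio of 1.18 (0.85 to 1.52). Fcgr1 had 56.1 CPM (39 UMIs) in hKO and 21.7 CPM (24 UMIs) in WT, and Fcgr2b 99.3 CPM (69 UMIs) in hKO and 45.3 CPM (50 UMIs) in WT. Fcgr3 had 259 CPM (223 to 300) in hKO and 267 CPM (238 to 299) in WT, a log2 ratio of -0.04 (-0.32 to 0.23). Fcer1g had 1767 CPM in hKO and 1462 CPM in WT.

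Macrophage transcripts moved with these differences. The 8 general macrophage markers, all detected in both libraries, summed to 10273 CPM in hKO and 5106 CPM in WT neutrophil-like cells, while neutrophil markers summed to 44612 CPM in hKO and 42002 CPM in WT. In neutrophil-like cells without a C1q UMI (122 in hKO and 294 in WT), a subset chosen after the data were seen that also leaves out deeper cells, Fcgr1 had 13.4 CPM (3 UMIs) in hKO and 11.3 CPM (7 UMIs) in WT. Fcgr2b had 26.7 CPM (6 UMIs) in hKO and 37.1 CPM (23 UMIs) in WT there, a log2 ratio of -0.47 (-2.06 to 0.87). Fcgr4 had 107 CPM (24 UMIs) in hKO and 54.8 CPM (34 UMIs) in WT there, a log2 ratio of 0.97 (0.15 to 1.76). Of the 3 members past the fold, Fcgr4 alone thus had an interval above 0 among cells without a C1q UMI. Fcgr1 had a log2 ratio of 0.25 (-2.34 to 2.38) there, an interval that held both 0 and the 1.37 of all neutrophil-like cells. With so few UMIs the Fcgr1 difference could not be judged in that subset.

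Set against the C1q transcripts, Fcgr4 in lymphocytes and hepatocytes stood close to the ratio in macrophages of the same library. Per 100 C1q UMIs, Fcgr4 had 5.69 UMIs in hKO and 2.81 UMIs in WT macrophage-like cells. In T-like cells the same measure was 6.14 in hKO and 2.59 in WT, in natural killer or innate lymphoid-like cells 5.17 in hKO and 2.92 in WT, and in hepatocyte-like cells 5.94 in hKO and 2.28 in WT. Nonclassical monocyte-like cells for Fcgr4, and sinusoidal endothelial-like cells for Fcgr2b, lay far above the macrophage line in both libraries, as the plot of receptor against C1q transcripts shows. The sum of C1q transcripts itself was 7397 CPM in hKO and 11349 CPM in WT macrophage-like cells.

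**Figure D3:**
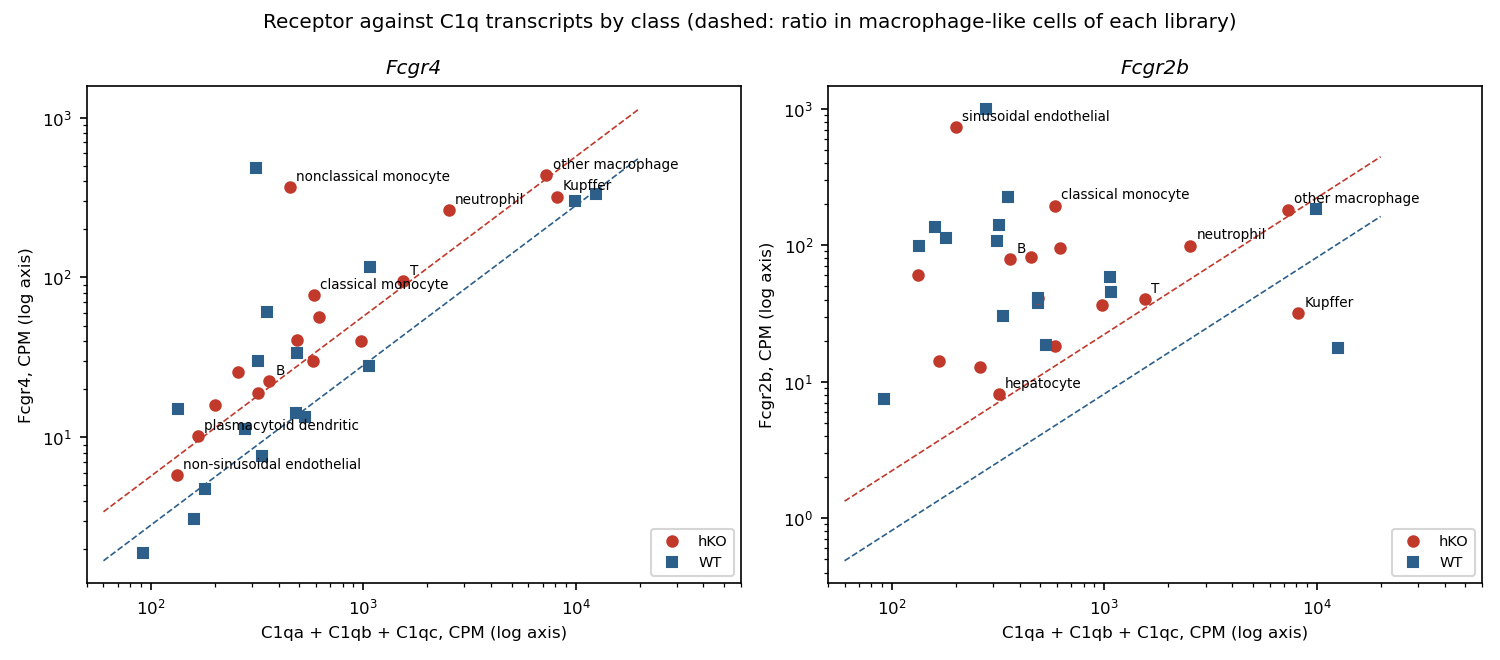
Fcgr4 (left) and Fcgr2b (right) against the summed C1qa, C1qb and C1qc level, both in CPM on log axes, 1 point per class and library (hKO circles, WT squares), with a dashed line at the ratio of macrophage-like cells of each library. Most lymphoid and hepatocyte points of Fcgr4 lie near the line of their library, while nonclassical monocyte-like cells (366 CPM in hKO and 483 CPM in WT) lie above it, as do sinusoidal endothelial-like cells for Fcgr2b.

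Sinusoidal endothelial-like cells carried the inhibitory receptor and the neonatal receptor with almost none of the activating ones. Fcgr2b had 1387 UMIs in 380 hKO cells (736 CPM, 698 to 776) and 8124 UMIs in 1394 WT cells (1002 CPM, 980 to 1024), a log2 ratio of -0.45 (-0.53 to -0.36). The share of these cells with an Fcgr2b UMI was 71.3% in hKO and 76.8% in WT, and 43.1% in hKO and 52.7% in WT after thinning, against 2.48% in hKO and 3.49% in WT thinned T-like cells. Cells without a C1q UMI gave 737 CPM in hKO and 994 CPM in WT. No subcluster of these cells held 50 cells of both libraries, and Fcgr2b ranged between subclusters from 198 to 983 CPM in hKO and from 443 to 1268 CPM in WT, wider than the difference between the libraries. Of the 380 hKO cells 255 lay in a subcluster led by genes of hepatocytes (Cyp2a5, Mup20 and Ttr among them) that held 3 WT cells, with 839 CPM of Fcgr2b in hKO. Hepatocyte markers made up 0.331% of UMIs in hKO and 0.156% in WT sinusoidal endothelial-like cells, and their part in the Fcgr2b difference was not tested. No member was past the fold (3.94% of genes were), and 34.5% of the 4268 genes tested had an interval below 0. Fcgrt had 471 UMIs (250 CPM, 228 to 273) in hKO and 2390 UMIs (295 CPM, 283 to 307) in WT, a log2 ratio of -0.24 (-0.38 to -0.10). Fcgr1, Fcgr3 and Fcgr4 stood between 4.44 and 15.9 CPM in both libraries, below their T-like levels. Over all kept cells Fcgr2b had 114 CPM in hKO and 235 CPM in WT, a log2 ratio of -1.05, in libraries where sinusoidal endothelial-like cells were 3.65% of hKO cells and 14.7% of WT cells.

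B-like cells (1270 in hKO, mostly cluster 6, and 1295 in WT, mostly cluster 4) had Fcgr2b as their receptor, the one Fc gamma receptor that B cells are known to carry. Fcgr2b had 271 UMIs (79.0 CPM, 69.9 to 89.0) in hKO and 499 UMIs (113 CPM, 103 to 123) in WT, a log2 ratio of -0.51 (-0.73 to -0.30), and 77.1 CPM in hKO and 107 CPM in WT among cells without a C1q UMI. Over 12 alternatives this Fcgr2b ratio kept its direction but ranged from -0.58 to -0.16. T-like cells, the background gauge, had 40.4 CPM of Fcgr2b in hKO and 58.2 CPM in WT, a log2 ratio of -0.53 (-0.74 to -0.31). T-like cells without a C1q UMI had 16.2 CPM in hKO and 49.2 CPM in WT. The part of free RNA in the B-like Fcgr2b difference was not tested. Fcer1g was past the fold in B-like cells, upward, as were 4.73% of genes, with 154 CPM in hKO and 55.8 CPM in WT. Among B-like cells without a C1q UMI it had 44.8 CPM in hKO and 41.4 CPM in WT, a log2 ratio of 0.11 (-0.27 to 0.50). Fcgr1, Fcgr3 and Fcgr4 were at 22.5 CPM or below in both libraries.

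Natural killer or innate lymphoid-like cells (197 in hKO and 387 in WT) carried the shared signaling chain, with 1447 CPM (1363 to 1535) of Fcer1g in hKO and 999.5 CPM (952 to 1048) in WT, a log2 ratio of 0.53 (0.42 to 0.64). Without cells that held a C1q UMI, Fcer1g had 1411 CPM in hKO and 1025 CPM in WT, a log2 ratio of 0.46 (0.30 to 0.62). Over 12 alternatives the Fcer1g ratio in these cells kept its direction but ranged from 0.11 to 0.65. Fcgr3, the receptor of antibody-dependent killing by these cells, had 42.0 CPM (32 UMIs) in hKO and 40.1 CPM (68 UMIs) in WT. Over all cells these Fcgr3 levels were near those of T-like cells. Among cells without a C1q UMI, Fcgr3 had 19.4 CPM (7.82 to 40.1; 7 UMIs) in hKO and 29.6 CPM (19.8 to 42.5; 29 UMIs) in WT natural killer or innate lymphoid-like cells, and 8.32 CPM (5.08 to 12.8) in hKO and 7.75 CPM (4.92 to 11.6) in WT T-like cells. In that subset the WT intervals of the 2 classes were apart, and the hKO ones overlapped. No member was past the fold in these cells, against 5.65% of genes.

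In T-like cells (mostly cluster 8 in hKO and cluster 7 in WT) Fcgr4 and Fcer1g were past the fold upward, with log2 ratios of 1.78 and 1.29, where 4.42% of genes were. Among T-like cells without a C1q UMI, Fcgr4 rested on 25 UMIs in hKO and 9 UMIs in WT, and Fcer1g had 126 CPM in hKO and 78.2 CPM in WT. Fcgr2b was lower in hKO past the fold in type 1 conventional dendritic-like cells, at 41.1 CPM (59 UMIs) in hKO and 98.3 CPM (92 UMIs) in WT, where 1.31% of genes were. It was lower past the fold in non-sinusoidal endothelial-like cells too, at 60.1 CPM (52 UMIs) in hKO and 135 CPM (44 UMIs) in WT, where 4.68% of genes were. T-like cells had 40.4 CPM of Fcgr2b in hKO and 58.2 CPM in WT, also lower in hKO. Hepatocyte-like cells had 112 CPM (415 UMIs) of Fcgrt in hKO and 36.9 CPM (29 UMIs) in WT, past the fold upward as were 20.4% of genes in these cells, and 111 CPM in hKO and 30.9 CPM in WT without the cells that held a C1q UMI. Over the 16 classes, 52 of 96 pairs of a member and a class reached 50 CPM. Of those 52 pairs 7 were past the fold upward and 2 downward, against 5.61% upward and 4.54% downward of all gene and class pairs at that level.

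The balance of activating to inhibitory receptor transcripts does not depend on how libraries are scaled. Fcgr1, Fcgr3 and Fcgr4 together made up 84.2% (83.3 to 85.0) of receptor UMIs in hKO and 91.0% (90.3 to 91.7) in WT macrophage-like cells, the rest being Fcgr2b, a log2 odds ratio of -0.93 (-1.08 to -0.78). Within other macrophage-like cells the activating share was 83.1% in hKO and 83.2% in WT, a log2 odds ratio of -0.01 (-0.18 to 0.15). In Kupffer-like cells it was 95.8% in hKO and 98.2% in WT, a log2 odds ratio of -1.22 (-1.92 to -0.48) that rests on 24 Fcgr2b UMIs in hKO and 71 in WT. In neutrophil-like cells it was 85.4% in hKO and 89.9% in WT, a log2 odds ratio of -0.62 (-1.21 to -0.03). It was in classical monocyte-like cells 66.7% in hKO and 68.7% in WT, and in nonclassical monocyte-like cells 86.1% in hKO and 85.9% in WT. Sinusoidal endothelial-like cells lay at the other end, with 3.95% in hKO and 2.51% in WT, a log2 odds ratio of 0.68 (0.22 to 1.11). B-like cells had 36.1% in hKO and 11.2% in WT, a log2 odds ratio of 2.16 (1.67 to 2.66), with Fcgr1, Fcgr3 and Fcgr4 each below their T-like level. Among B-like cells without a C1q UMI, these had 4, 8 and 16 UMIs in hKO, against 184 of Fcgr2b. In WT they had 7, 14 and 18 UMIs there, against 326 of Fcgr2b. Natural killer or innate lymphoid-like cells had 81.1% in hKO and 60.5% in WT (1.48, 0.48 to 2.55). In T-like cells, the background gauge, the share was 82.5% in hKO and 59.3% in WT (1.69, 1.43 to 1.95), opposite in direction to macrophage-like cells.

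Fcgr4 took a larger part of the activating receptor transcripts in hKO in macrophage-like, neutrophil-like and classical monocyte-like cells, and in T-like cells too. It made up 48.2% of activating UMIs in hKO and 34.1% in WT macrophage-like cells, Fcgr3 34.0% in hKO and 41.1% in WT, and Fcgr1 17.8% in hKO and 24.8% in WT. In cluster 3 alone Fcgr4 made up 48.1% in hKO and 33.2% in WT. In cluster 16, a Kupffer-like cluster of 87 hKO and 436 WT cells, the Fcgr4 share was 43.6% in hKO and 34.2% in WT. In classical monocyte-like cells Fcgr4 made up 19.9% in hKO and 12.3% in WT, but its hKO level was below that of T-like cells. Among classical monocyte-like cells without a C1q UMI, Fcgr4 had 108 UMIs in hKO, beside 260 of Fcgr1 and 417 of Fcgr3. In WT it had 78 UMIs there, beside 221 of Fcgr1 and 377 of Fcgr3. In T-like cells, where these receptors were read as background, Fcgr4 made up 800 of 1600 activating UMIs in hKO and 177 of 541 (32.7%) in WT. Classical monocyte-like cells had mostly Fcgr3 (50.3% in hKO and 54.7% in WT) and nonclassical monocyte-like cells mostly Fcgr4 (71.7% in hKO and 74.0% in WT). In neutrophil-like cells Fcgr4 made up 45.5% in hKO and 28.6% in WT and Fcgr3 44.8% in hKO and 66.0% in WT.

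**Figure D4:**
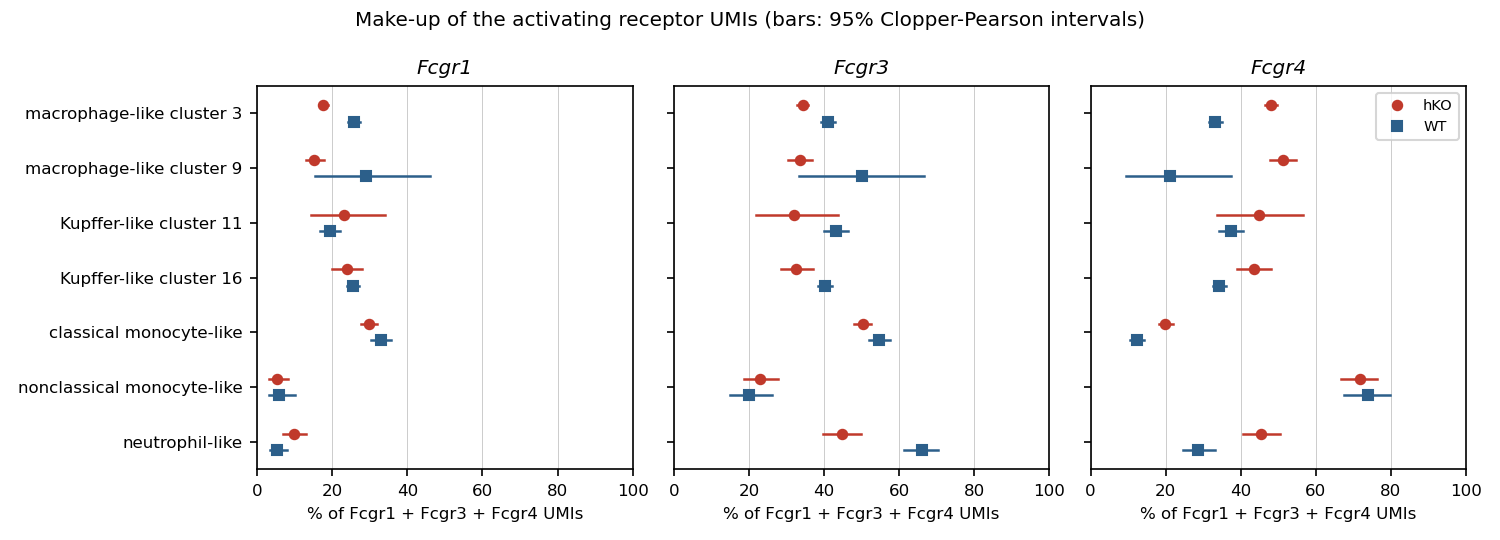
Share of Fcgr1, Fcgr3 and Fcgr4 in the sum of their UMIs (%) in each macrophage-like and Kupffer-like cluster and in monocyte and neutrophil classes, hKO circles and WT squares, with Clopper-Pearson 95% intervals. The Fcgr4 share of cluster 3 was 48.1% in hKO and 33.2% in WT, with lower shares of Fcgr1 and Fcgr3 in hKO.

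Genes that act with the receptors were described by lists in macrophage-like cells, where the median log2 ratio of all genes tested was -0.06. Of 14 genes of activating signaling 12 reached 50 CPM, none was past the fold and their median was 0.15; Tyrobp, the sister chain of Fcer1g, had 2178 CPM in hKO and 1951 CPM in WT, and Hcst 60.4 CPM in hKO and 40.7 CPM in WT. Of 10 genes of inhibitory signaling 7 reached 50 CPM, none was past the fold and their median was -0.04; Inpp5d had 368 CPM in hKO and 344 CPM in WT, and the adaptor Dok2 44.5 CPM in hKO and 70.5 CPM in WT. Of 14 other Fc receptors and Fc-binding proteins 2 reached that level and neither was past the fold, Lgals3 having 1347 CPM in hKO and 1686 CPM in WT.

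A list of 11 genes held immunoglobulin chains, albumin, Crp and Apcs as ligands, and B2m as the partner of the neonatal receptor. Of these 5 reached 50 CPM, 1 higher and 2 lower past the fold. Of all genes tested in macrophage-like cells 3.25% were higher and 1.94% lower. Igha, the heavy chain of IgA, had 5.18 CPM in hKO and 588 CPM in WT macrophage-like cells, and the kappa light chain Igkc had 55.5 CPM in hKO and 1858 CPM in WT. Albumin, made by hepatocytes, had 2142 CPM in hKO and 860 CPM in WT. Plasma cells and hepatocytes make these transcripts, and how much of them was free RNA was not tested. B2m, the partner of Fcgrt, had 2367 CPM in hKO and 2059 CPM in WT.

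Of 10 interferon gamma response genes 8 reached 50 CPM and 1 was higher past the fold in macrophage-like cells, the chemokine Cxcl9 with 232 CPM in hKO and 73.3 CPM in WT, against 3.25% of all genes. In other macrophage-like cells Cxcl9 had 254 CPM in hKO and 120 CPM in WT and the immunity-related GTPase Iigp1 90.2 CPM in hKO and 34.8 CPM in WT, both past the fold upward as were 3.42% of genes there. Of 12 other phagocytic receptors 10 reached 50 CPM and 1 was lower past the fold, the Kupffer cell complement receptor Vsig4 with 152 CPM in hKO and 703 CPM in WT, against 1.94% of all genes. Vsig4 was not past the fold within either subset, with 978 CPM in hKO and 1229 CPM in WT Kupffer-like cells (a log2 ratio of -0.33) and 41.1 CPM in hKO and 54.6 CPM in WT other macrophage-like cells (-0.41). Mertk, a receptor for dying cells, had 678 CPM in hKO and 921 CPM in WT.

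Across the 32 columns of 16 classes by 2 libraries, the likeness of each gene to 7726 others was ranked by Pearson's r of log2(CPM + 10), as a description of columns that share libraries. Ms4a6d (r = 0.952) and Trem2 (0.937) were among the 3 genes most like Fcgr1. Fcgr3 was most like Lpcat2 (0.937), Pla2g4a (0.933) and Pilrb2 (0.933), and Fcgr4 most like Pilrb1 (0.945), Adgre1 (0.940) and Pilrb2 (0.938). Fcer1g was most like Tyrobp (0.931), Fyb (0.899) and Fgr (0.888). Fcgr2b had no such close neighbor, with Arrb1 (0.798), Stard8 (0.729) and Ckap4 (0.717) ahead, and Fcgrt followed Hs6st1 (0.851), Tle1 (0.850) and Ctnnd1 (0.846). Among the members, r was 0.912 for Fcgr1 with Fcgr3, 0.899 for Fcgr3 with Fcgr4 and 0.493 for Fcgr2b with Fcgrt.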

How the data were processed

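The deposited counts are whole UMIs for each gene in each barcode, not normalized, and Cell Ranger 7.1.0 made them, per the file headers. The other columns, names of genes and barcodes, were deposited as row and column names. The submitters' processing notes name Cell Ranger, R 3.0, Seurat 3 and build mm9. Group and treatment were taken from the labels.

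Kept cells had 200 genes or more, 500 UMIs or more and no more than 25% of UMIs from mitochondrial genes. Scrublet was run per library: its own threshold called 0.0175% of hKO cells, under the limit of 0.5%, so the top 9.16% of scores (1049 cells) were removed, while 394 WT cells (4.00%) were removed at its own threshold. Clustering used scanpy 1.11.5 and leidenalg 0.10.2 with 2000 variable genes per library (without Fabp5, Fc receptor genes and genes of mitochondria, ribosomes or immunoglobulins), 30 principal components, 15 neighbors and resolution 1.0, without integration. Of 29 clusters 4 stayed unnamed.

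UMIs were summed per class and library. CPM has exact Poisson intervals, shares of cells Clopper-Pearson intervals and log2 ratios (hKO over WT) exact conditional binomial intervals, computed with scipy 1.17.1. The ratio script was tested on simulated data. Antisense genes overlap Fcgr2b and Fcgrt. Named are all 6 members, the 3 genes most like each, and 2 to 4 genes from each of 6 lists with the largest log2 ratio in size in macrophage-like cells or, for partners of the receptors (Inpp5d, B2m and others), for their role, chosen after values were seen. Lgals3 and Mertk were named although other genes of their lists had larger ratios. Some results that these rules name are not reported here. The members and lists were chosen with earlier results of these data known. Upstream sequences are from RefSeq, GRCm38.p6, matched by symbol (6 of 6). Alternatives tried were other cell limits, doublet handling, clustering settings, scalings, background subtraction and subsets.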

Additional observations from a re-analysis of the deposited data

Results flagged for a closer look

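Fcgr2b was past the fold in opposite directions in different classes. Its log2 ratio of hKO over WT was 1.13 in neutrophil-like cells (99.3 CPM in hKO and 45.3 CPM in WT), and -1.26 in type 1 conventional dendritic-like cells (41.1 CPM in hKO and 98.3 CPM in WT) and -1.17 in non-sinusoidal endothelial-like cells (60.1 CPM in hKO and 135 CPM in WT). With 1 library per group the difference between the classes was not tested. T-like cells, the background gauge, had 40.4 CPM in hKO and 58.2 CPM in WT, also lower in hKO. The hKO level of type 1 conventional dendritic-like cells was near that of hKO T-like cells. The WT level of neutrophil-like cells was below that of WT T-like cells. Macrophage markers summed to 10273 CPM in hKO and 5106 CPM in WT neutrophil-like cells, and without cells that held a C1q UMI the Fcgr2b ratio there was -0.47.

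Cluster 13, in no comparison above because it raised markers of both T cells and macrophages, held 485 hKO and 227 WT cells and carried the receptors at macrophage-like levels. Fcgr2b had 163 CPM in hKO and 113 CPM in WT (log2 ratio 0.53), Fcgr4 339 CPM in hKO and 266 CPM in WT (0.35), and Fcer1g 1995 CPM in hKO and 1532 CPM in WT (0.38). Whether these barcodes are doublets that the caller left was not tested.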

How the results depend on the processing

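No paired analysis was possible because there is 1 library per group, and for the same reason no replicate could be left out. In macrophage-like cells Fcgr1 kept its direction under all 15 alternatives (-0.79 to -0.29), as did Fcgr3 (-0.97 to -0.27) and Fcgr2b (0.08 to 1.87), Fcgr4 under 13, and Fcer1g and Fcgrt under 14 each. Of 122 values for 9 main results 69 stayed within the counting interval, 49 moved and 4 changed the sign of a value whose interval excluded 0, and for 38 others these numbers were 305, 70 and 6 of 381. Among the 38 others, 31 more values had the other sign where the main interval included 0, as for Fcgr4 and Fcer1g in Kupffer-like cells and Fcgr2b in other macrophage-like cells. The values that moved are log2 ratios of macrophage-like cells unless another class is named. The cause was not tested.

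A mitochondrial limit of 10% gave -0.72 for Fcgr1, -0.49 for Fcgr3, 0.20 for Fcgr4, 0.16 for Fcer1g, -0.55 for Fcgrt, -0.65 for sinusoidal Fcgr2b and -0.29 for Fcgrt in other macrophage-like cells, where the main value was 0.22; a limit of 50% gave 0.19 for Fcer1g. Keeping doublets gave 0.64 for Fcgr2b, 0.27 for Fcgr4, -0.39 for Fcgrt and -0.047 for Fcgrt in other macrophage-like cells. Minimums of 500 genes and 1000 UMIs gave -0.41 for Fcgrt, and -0.029 in other macrophage-like cells. Resolution 2.0 gave 0.20 for Fcer1g and -0.39 for Fcgrt, and keeping Fc receptor genes in the clustering 0.98 for Fcgr2b and 0.29 for Fcer1g. Leaving abundant gene kinds out of the total gave 0.31 for Fcer1g and -0.35 for sinusoidal Fcgr2b, setting the median ratio to 0 gave 0.30 and -0.35, and equal weight per cell 0.29 and -0.31.

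Subtracting the background class gave -0.79 for Fcgr1, 1.87 for Fcgr2b, -0.56 for Fcgr3, 0.16 for Fcgr4, 0.19 for Fcer1g and -2.18 for the log2 odds ratio. Leaving out subclusters led by genes of another class, which left 99 hKO and 1401 WT cells, gave -0.87 for Fcgr3, -0.028 for Fcgr4, -0.17 for Fcer1g, -0.50 for Fcgrt and -1.27 for the log2 odds ratio. A floor of 20 CPM raised the genes past the fold to 318, against 190.

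The next alternatives were added after seeing the data. Cluster 3 alone gave 0.10 for Fcgr2b, -0.27 for Fcgr3, 0.53 for Fcgr4, 0.14 for Fcer1g and 0.20 for Fcgrt. Cluster 11 alone (81 hKO and 741 WT cells) gave -0.29 for Fcgr1, 0.64 for Fcgr2b, -0.97 for Fcgr3, -0.28 for Fcgr4 and 0.11 for Fcer1g. Cluster 16 alone gave -0.44 for Fcgr1, 1.12 for Fcgr2b, -0.64 for Fcgr3, 0.0067 for Fcgr4, 0.038 for Fcer1g and -0.38 for Fcgrt. Equal weight for Kupffer-like and other macrophage-like cells gave 0.085 for Fcgr2b, -0.49 for Fcgr3, 0.25 for Fcgr4 and 0.11 for Fcer1g. Cells without a C1q UMI gave -0.20 for Fcgr4 in classical monocyte-like cells, and -0.47 for Fcgr2b and -0.076 for Fcer1g in neutrophil-like cells. Counts were small for Fcgr2b in the 168 hKO Kupffer-like cells (24 UMIs). In neutrophil-like cells Fcgr1 rested on 39 hKO and 24 WT UMIs.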
